A study of Homo sapiens with 4 samples.

Results

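APLNR, the receptor for apelin, KDR, FLT1 and FLT4, the receptors for vascular endothelial growth factors, PDGFRA and PDGFRB, the receptors for platelet-derived growth factors, KIT, the receptor for stem cell factor, and TEK, the receptor for angiopoietins, were examined together with 2 of their ligands, APLN and VEGFA. The 10 genes were taken by symbol from the 17894 genes listed in each library. Values are FPKM, a fragment count normalized to transcript length and to the size of the library. Averaged over the 4 libraries, 9 of the 10 reached 1 FPKM and were compared among the 12697 genes that did so, and APLN did not.

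The apelin receptor is a G protein-coupled receptor that binds apelin and a second peptide, APELA (also called Elabela or Toddler), and it is carried by early mesoderm that goes on to form heart, vessels and blood. The other receptors are tyrosine kinases of the cell surface, which pair when a ligand binds and then phosphorylate each other. In cultures of human pluripotent cells, KDR and PDGFRA together are used to mark mesoderm. PDGFRA is later retained in paraxial and cardiac derivatives, whereas KDR, KIT and TEK are associated with endothelium and early blood cells.

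All libraries came from H1, a human embryonic stem cell line, which was differentiated towards blood on the mouse stromal line mAGM-S3 and collected at day 2. Human cells were enriched by sorting for TRA-1-85, an antigen of human cells. There were 4 libraries: wild type control, wild type given 20 ng/mL of R-spondin2 over the first day, LGR4-/- clone 1 and LGR4-/- clone 2, neither clone having an R-spondin2 treatment in its label. R-spondin2 is a secreted protein that strengthens WNT signaling, and LGR4 is a receptor for R-spondins. How the LGR4-/- lines were made is not given in the sources used here, and the value columns of their files carry names that the labels do not explain, so that each was taken for the sample it was deposited under. With 1 library each, control and R-spondin2 had no replicate check, and the 2 LGR4-/- libraries are separate clonal lines, so that their spread holds clonal differences too. Both comparisons below shared the control library.

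LGR4 itself was at 21.77 FPKM in the control library, 24.26 FPKM with R-spondin2, 7.40 FPKM in clone 1 and 13.95 FPKM in clone 2. LGR4 RNA was thus at 34.0% of control in clone 1 and at 64.1% in clone 2, so that it was lower in both clones without being lost in either. The RNA level does not report the protein.

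The libraries held markers of mesoderm, endoderm and pluripotent cells, and the sum of each kind moved with the groups. The 6 mesoderm markers (T, MIXL1, MESP1, EOMES, HAND1 and FOXF1) summed to 676.87 FPKM in the control library, 926.57 with R-spondin2, 280.62 in clone 1 and 435.47 in clone 2, and 3 of the 6 were at least 2-fold lower in both clones. The 6 markers of pluripotent cells, POU5F1 among them, summed to 1143.6, 876.96, 1914.28 and 1750.78 FPKM in the same order, and 2 of the 6 were at least 2-fold higher in both clones. With R-spondin2, 1 of the 6, SOX2, was at least 2-fold lower, at 5.58 FPKM against 19.89 FPKM in the control library. Of all genes tested, 1.08% were at least 2-fold lower and 0.236% higher in both clones, and 0.173% were lower with R-spondin2. The 6 endoderm markers summed to 238.81, 300.22, 84.2 and 116.34 FPKM, and 2 of the 6, GATA4 and GATA6, were at least 2-fold lower in both clones. GATA6 made up much of the sum, at 140.57, 186.79, 39.52 and 61.19 FPKM. FOXA2, at 9.05, 8.44, 11.88 and 11.64 FPKM, was instead higher in both clones than in both wild type libraries. AFP was so too, at no more than 0.98 FPKM. The 6 blood markers summed to between 6.53 and 9.97 FPKM, and 1 of them, RUNX1, a transcription factor of emerging blood cells, was at least 2-fold lower in both clones, at 3.96, 3.71, 0.61 and 1.29 FPKM. Of the 4 blood markers averaging 1 FPKM or more, 1, ITGA2B, was above control in the clone mean. It was at 0.87, 0.63, 1.74 and 1.63 FPKM. SPN was nearly level, at 2.67, 2.31, 2.71 and 2.35 FPKM. The 6 endothelial markers summed to between 1.26 and 1.92 FPKM. None of the endothelial markers had a mean of 1 FPKM, and CDH5, the cadherin of endothelial junctions, was at 0.05 FPKM in 3 libraries and listed at 0 in clone 2. The 6 stromal markers summed to 188.88, 255.84, 159.28 and 179.9 FPKM in the order above. COL1A1 (63.96 to 83.6 FPKM) and COL1A2 (79.41 to 152.96 FPKM) made up most of this and COL3A1 was at 4.29 to 9.86 FPKM, whereas DCN reached at most 0.27 FPKM and POSTN at most 0.39 FPKM. LUM, at 5.49, 9.11, 0.16 and 1.45 FPKM, was the 1 stromal marker at least 2-fold lower in both clones. In RNA from such a mixture, fewer cells of a type and less RNA per cell cannot be told apart. Whether the marker sums have a part in the differences described here was not tested.

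APLNR was the most abundant of the 10 genes, and on the log2(FPKM+1) scale used for calls it was the only one of the 9 compared that was at least 2-fold different from control in both LGR4-/- clones. PDGFRA was just short of it on that scale, although its FPKM and implied reads were more than 2-fold lower in both clones. APLNR was at 362.46 FPKM in the control library, 443.61 FPKM with R-spondin2, 71.23 FPKM in clone 1 and 122.19 FPKM in clone 2. The libraries thus ordered as R-spondin2, control, clone 2 and clone 1, with a wide gap between both wild type libraries and both clones. In rank among all genes listed, APLNR was 158 in the control library, 135 with R-spondin2, 982 in clone 1 and 540 in clone 2.

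Differences were taken on the log2(FPKM+1) scale, which understates the change of genes with low values, and a gene was called at a difference of at least 1 (2-fold). APLNR differed from control by -2.33 in clone 1 and by -1.56 in clone 2, a mean of -1.95 ± 0.54 (SD, n = 2 clones). Its FPKM were thus 19.7% of the control in clone 1 and 33.7% in clone 2. With R-spondin2 they were 122.4% of the control, a difference of 0.29 that did not reach 2-fold. At the estimated depth its FPKM corresponded to 11655 reads in the control library, 13897 with R-spondin2, 2288 in clone 1 and 3872 in clone 2. The log2 ratio of these reads to control was -2.35 (95% interval -2.41 to -2.28) in clone 1, -1.57 (interval -1.62 to -1.52) in clone 2 and 0.29 (interval 0.26 to 0.33) with R-spondin2. Clone 2 exceeded clone 1 by 0.78 (interval 0.70 to 0.85), so that the clones differed from each other by more than counting error. These intervals are Clopper-Pearson intervals, rest on the estimated depth, and cover counting error only, not the spread between cultures.

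Of the 9 receptors and ligands compared, 1 was at least 2-fold lower in both clones, beside 1.08% of all genes tested, and 0 of 9 were at least 2-fold higher, beside 0.236%. With R-spondin2, 0 of 9 were past 2-fold in either direction, beside 0.221% of all genes (0.0473% higher and 0.173% lower), and between the clones 0 of 9, beside 0.252%. With limma, whose residual spread came from the 2 clones alone, 0 of 9 passed an adjusted p of 0.05, and 0 of the 12697 genes did. At an unadjusted p under 0.05, 5 of 9 and 2332 genes (18.4% of all) were counted. The limma adjusted p of APLNR was 0.0899 with a standard error of 0.30. It ranged from 0.0164, when limma was run only on genes averaging 5 FPKM or more, to 0.379, when no low genes were left out.

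**Figure D1:**
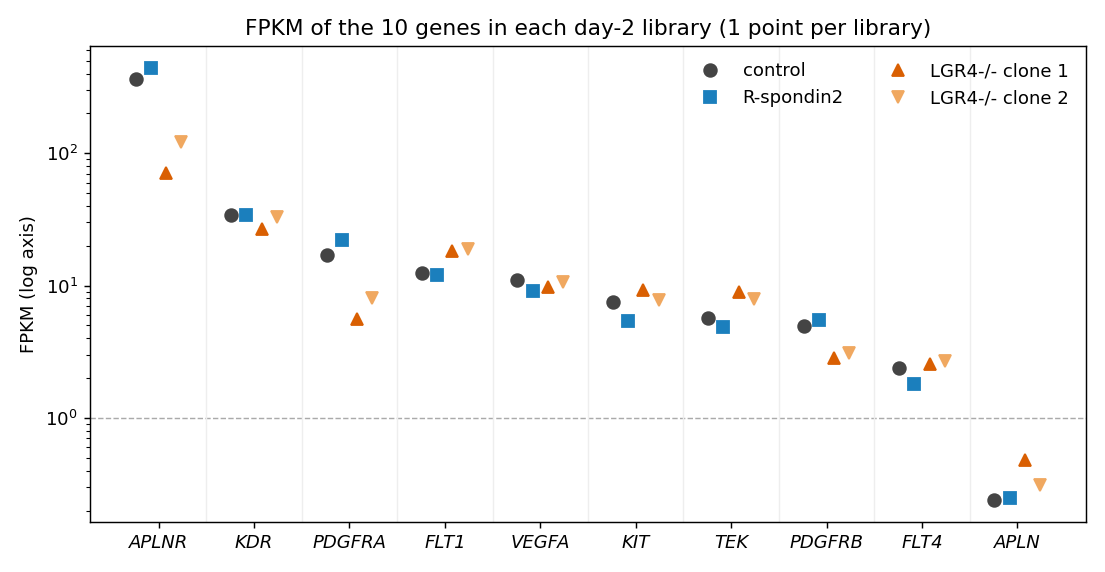
FPKM on a log axis (vertical) of the 10 genes (columns) in the 4 libraries, each point being 1 library. The dashed line marks 1 FPKM. APLNR lies at 362.46 and 443.61 FPKM in the wild type libraries and at 71.23 and 122.19 FPKM in the clones, and APLN lies under the line in every library.

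APLNR (NCBI gene 187) lies on chromosome 11, 57233577 to 57237314, minus strand, in the GENCODE release 29 annotation of GRCh38, a build other than the hg19 that the authors' processing notes name. The pair of primers with which the study amplified APLNR by RT-PCR is shown because it marks the stretch of the receptor that was assayed by a second method. The study's RT-PCR of APLNR and KDR was done in a chemically defined culture, not in the co-culture of these libraries. Both match the coding part of its single-exon transcript (ENST00000606794.1) once, at chr11:57236838-57236857 and chr11:57236734-57236754, and enclose 124 bases.
APLNR forward: ctctggaccgtgtttcggag
APLNR reverse: ggtacgtgtaggtagcccaca
The KDR pair is shown as that of a mesoderm receptor which, unlike APLNR, did not reach 2-fold in either clone. Both primers match exon 3 of 30 of its transcript (ENST00000645273.1), within the coding part, at chr4:55118754-55118774 and chr4:55118670-55118692, and enclose 105 bases.
KDR forward: ggcccaataatcagagtggca
KDR reverse: tgtcatttccgatcacttttgga
By RT-PCR the study reported marked upregulation of APLNR and KDR with R-spondin2 in the chemically defined culture. In the R-spondin2 library, from the co-culture, APLNR FPKM were 122.4% of control and KDR FPKM 99.2%. No RT-PCR values were used here. Because both products lie within an exon, the primers of either pair do not span an intron.

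The ligands of APLNR were low. APLN (NCBI gene 8862, chromosome X, 129645259 to 129654937), which encodes apelin, was at 0.24 FPKM in the control library, 0.25 FPKM with R-spondin2, 0.48 FPKM in clone 1 and 0.31 FPKM in clone 2, which correspond to 7, 7, 14 and 9 reads. No difference was detectable for APLN at this depth, since every counting interval of its ratio to control held 0. APELA, the other peptide ligand, was at 4.84 FPKM in the control library, 1.71 FPKM with R-spondin2, 11.91 FPKM in clone 1 and 7.23 FPKM in clone 2. APELA was therefore lowest where its receptor was highest and highest where its receptor was lowest, over 4 libraries. It was at least 2-fold lower with R-spondin2 (difference -1.11), and its differences from control were 1.14 in clone 1 and 0.49 in clone 2, so that only clone 1 passed 2-fold.

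KDR, the main signaling receptor for VEGFA, stayed within 2-fold of control in every library. It was at 34.40 FPKM in the control library, 34.12 FPKM with R-spondin2, 26.80 FPKM in clone 1 and 32.87 FPKM in clone 2. Both clones lay below both wild type libraries, but clone 2 was within counting error of control. The log2 ratio of reads was -0.01 (interval -0.11 to 0.08) with R-spondin2, -0.36 (interval -0.46 to -0.26) in clone 1 and -0.07 (interval -0.16 to 0.03) in clone 2. The difference of the clone mean from control was -0.21 ± 0.20 (SD, n = 2 clones) on the log2(FPKM+1) scale, and the limma adjusted p was 0.513. APLNR FPKM were 10.5 times those of KDR in the control library, 13.0 times with R-spondin2, 2.66 times in clone 1 and 3.72 times in clone 2.

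FLT1, which binds VEGFA tightly and also exists as a soluble form that holds it back, was higher in both clones than in both wild type libraries. It was at 12.48 FPKM in the control library, 12.11 FPKM with R-spondin2, 18.41 FPKM in clone 1 and 19.01 FPKM in clone 2. The clones lay close together, with a difference from control of 0.53 in clone 1 and 0.57 in clone 2, neither reaching 2-fold. The ratio of reads was 0.56 (interval 0.31 to 0.82) and 0.61 (interval 0.36 to 0.87) in the clones and -0.04 (interval -0.32 to 0.25) with R-spondin2. The limma adjusted p of FLT1 was 0.101, and the same alternatives gave 0.0417 to 0.343. Membrane and soluble FLT1 were not separated, since the files give 1 value per gene. KDR FPKM were 2.76 and 2.82 times those of FLT1 in the wild type libraries and 1.46 and 1.73 times in clones 1 and 2.

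FLT4, the receptor for VEGFC and VEGFD that marks lymphatic endothelium, was at 2.40 FPKM in the control library, 1.81 FPKM with R-spondin2, 2.56 FPKM in clone 1 and 2.70 FPKM in clone 2. All of its counting intervals against control held 0, the one with R-spondin2 running from -0.90 to 0.05 around -0.42. The FLT4 intervals rest on the shortest of its listed transcripts, of 4292 bases, and a longer one would narrow them. VEGFA, the ligand that KDR and FLT1 share, was at 11.01 FPKM in the control library, 9.10 FPKM with R-spondin2, 9.74 FPKM in clone 1 and 10.68 FPKM in clone 2. VEGFA was the only gene of the 9 in which the clones and the wild type libraries overlapped, and none of its intervals excluded 0. Those intervals rest on its shortest listed transcript, of 414 bases, which implies 41, 33, 36 and 39 reads in the order above. A longer transcript would imply more reads and narrower intervals, so that they do not settle whether VEGFA differed. The limma adjusted p was 0.815 for FLT4 and 0.734 for VEGFA.

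**Figure D2:**
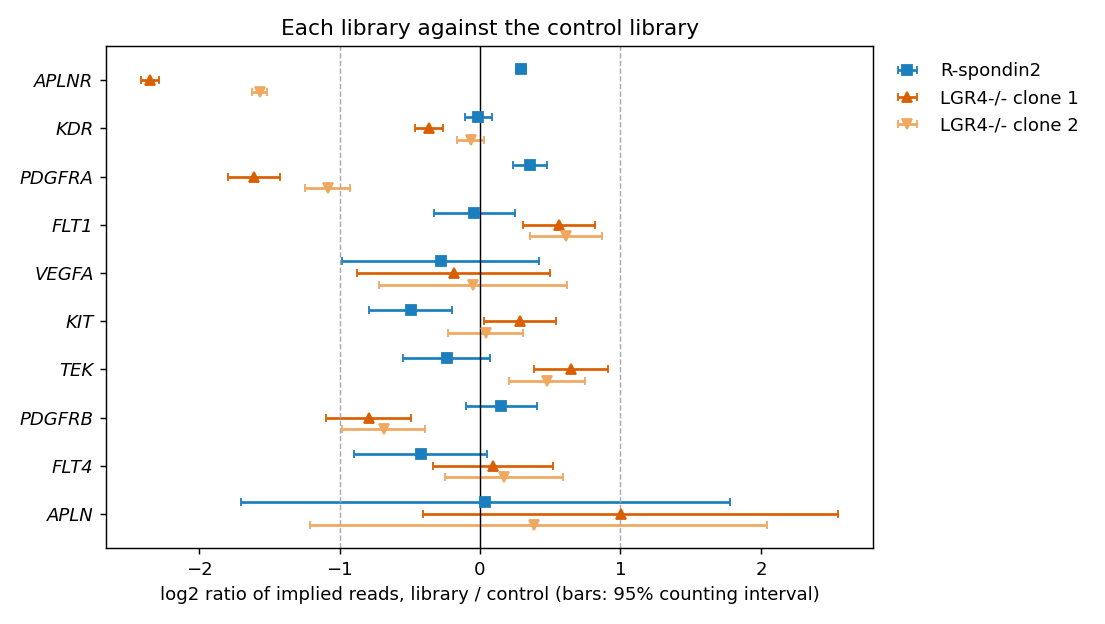
Log2 ratio of implied reads to the control library (horizontal, bars are 95% counting intervals) for each of the 10 genes (rows) in R-spondin2 and in both LGR4-/- clones, with dashed lines at 2-fold. On this scale APLNR and PDGFRA are both past 2-fold lower in both clones, the FLT1 intervals of both clones lie above 0, and the KDR interval of clone 2 (-0.16 to 0.03) holds 0.

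PDGFRA, which binds PDGF-A and PDGF-C dimers, had the next largest differences after APLNR. It was at 17.13 FPKM in the control library, 21.97 FPKM with R-spondin2, 5.62 FPKM in clone 1 and 8.09 FPKM in clone 2. The libraries had the same order as for APLNR, and the clones lay well below both wild type libraries. PDGFRA differed from control by -1.45 in clone 1 and by -0.996 in clone 2, just short of 2-fold on the log2(FPKM+1) scale, a mean of -1.22 ± 0.32 (SD, n = 2 clones). Without the pseudocount, its FPKM were 32.8% of the control in clone 1 and 47.2% in clone 2. In reads, the ratio was -1.61 (interval -1.79 to -1.43) in clone 1, -1.08 (interval -1.24 to -0.92) in clone 2 and 0.36 (interval 0.24 to 0.48) with R-spondin2, and clone 2 exceeded clone 1 by 0.52 (interval 0.32 to 0.73). The limma adjusted p was 0.0899, and the same alternatives gave 0.0224 to 0.376. PDGFRA was also past 2-fold in both clones with a pseudocount of 0.1 FPKM or with the libraries rescaled by their median ratio.

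PDGFRB, the receptor for PDGF-B dimers that is typical of pericytes and other mural cells, was at 4.97 FPKM in the control library, 5.52 FPKM with R-spondin2, 2.86 FPKM in clone 1 and 3.08 FPKM in clone 2. It too was lower in both clones than in both wild type libraries, without reaching 2-fold. Its ratio of reads was -0.79 (interval -1.10 to -0.49) in clone 1, -0.69 (interval -0.98 to -0.39) in clone 2 and 0.15 (interval -0.10 to 0.41) with R-spondin2, and its limma adjusted p was 0.143. PDGFRA FPKM were 3.45 and 3.98 times those of PDGFRB in the control and R-spondin2 libraries and 1.97 and 2.63 times in clones 1 and 2.

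KIT, a receptor of germ cells, mast cells and blood progenitors that is also found on pluripotent cells, was at 7.56 FPKM in the control library, 5.39 FPKM with R-spondin2, 9.24 FPKM in clone 1 and 7.77 FPKM in clone 2. R-spondin2 gave the lowest value and clone 1 the highest. The ratio of reads was -0.49 (interval -0.79 to -0.20) with R-spondin2, 0.29 (interval 0.03 to 0.54) in clone 1 and 0.04 (interval -0.23 to 0.31) in clone 2, so that clone 2 was within counting error of control. The limma adjusted p was 0.680.

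TEK, the angiopoietin receptor also called TIE2, was at 5.73 FPKM in the control library, 4.88 FPKM with R-spondin2, 9.0 FPKM in clone 1 and 7.98 FPKM in clone 2. Both clones lay above both wild type libraries, as for FLT1. The ratio of reads was 0.65 (interval 0.39 to 0.92) in clone 1, 0.48 (interval 0.21 to 0.75) in clone 2 and -0.24 (interval -0.55 to 0.07) with R-spondin2, and the limma adjusted p was 0.174.

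The 9 genes therefore did not move in a single direction. APLNR, KDR, PDGFRA and PDGFRB (4 of 9, beside 27.6% of all genes tested) were lower in both clones than in both wild type libraries and FLT1, FLT4, KIT and TEK (4 of 9, beside 34.4%) were higher, so that 8 of 9 had no overlap, beside 62.0% of all genes. The share among all genes was thus also high, and the R-spondin2 library counts as wild type in it. The median difference of the clone mean from control was -0.10 over the 9 genes and 0.02 over all genes, and with R-spondin2 it was -0.04 beside -0.01. Counting intervals against control excluded 0 for 3 of the 10 genes with R-spondin2 (APLNR, PDGFRA and KIT), beside 17.4% of all genes with a known length and at least 10 reads, for 7 in clone 1, beside 36.1%, and for 5 in clone 2, beside 28.2%. Between the clones they excluded 0 for 3 genes, APLNR, PDGFRA and KDR, each higher in clone 2, beside 18.4%.

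**Figure D3:**
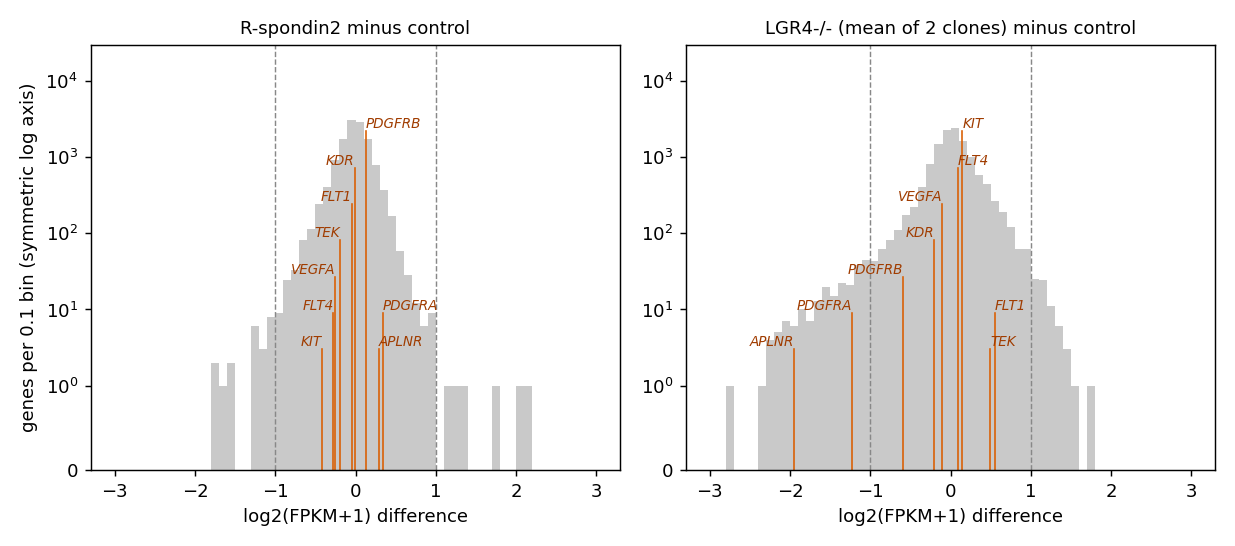
Number of genes (vertical, symmetric log axis) by difference from control on the log2(FPKM+1) scale (horizontal, bins of 0.1) for the 12697 genes tested, with R-spondin2 on the left and the mean of both clones on the right; marks show the 9 genes. APLNR at -1.95 and PDGFRA at -1.22 lie in the lower tail on the right, and every mark on the left lies between -0.42 and 0.34.

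PDGFRA, KIT and KDR are consecutive protein-coding genes on chromosome 4 in the GRCh38 annotation. PDGFRA (NCBI gene 5156) lies at 54229097 to 54298247, KIT (NCBI gene 3815) at 54657918 to 54740715 and KDR (NCBI gene 3791) at 55078259 to 55125595 on the minus strand, with gaps of 359.7 kb and 337.5 kb between them. Their differences from control were unlike, with clone means of -1.22 for PDGFRA, 0.15 for KIT and -0.21 for KDR. The remaining kinase receptors lie elsewhere, FLT1 (NCBI gene 2321) on chromosome 13, 28300344 to 28495145, FLT4 (NCBI gene 2324) on chromosome 5, 180601506 to 180649624, PDGFRB (NCBI gene 5159) on chromosome 5, 150113837 to 150155872, and TEK (NCBI gene 7010) on chromosome 9, 27109141 to 27230175. VEGFA (NCBI gene 7422) lies on chromosome 6, 43770184 to 43786487.

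The promoters of the 3 neighbours are shown because the neighbours differed in their values, and that of FLT1 because it was higher in the clones while KDR was not. Each runs from 250 bases before to 50 bases after a RefSeq transcript start in GRCh38.p14, 5′ to 3′ on the strand of the gene, and entries were at hand for 7 of the 10 genes. There was no entry for APLNR, FLT4 and VEGFA, and those of PDGFRB, TEK and APLN are not printed. Capitals mark 5-base motifs, searched on both strands, as bound by the WNT effectors TCF/LEF (CTTTG, or CAAAG on the other strand), by SMAD proteins (CAGAC or GTCTG) and by GATA factors (GATAA or TTATC). None of the marked matches overlapped another. The PDGFRA promoter (chr4:54229043-54229342, plus strand) is the first of a pair listed for that gene. The others are those of KIT (chr4:54657707-54658006, plus strand), KDR (chr4:55125546-55125845, minus strand) and FLT1 (chr13:28495079-28495378, minus strand).
PDGFRA promoter: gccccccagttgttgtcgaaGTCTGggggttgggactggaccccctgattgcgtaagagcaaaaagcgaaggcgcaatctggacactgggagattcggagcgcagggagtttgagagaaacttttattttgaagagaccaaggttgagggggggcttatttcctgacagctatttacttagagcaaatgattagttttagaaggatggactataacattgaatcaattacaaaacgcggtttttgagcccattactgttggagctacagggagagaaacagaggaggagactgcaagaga
KIT promoter: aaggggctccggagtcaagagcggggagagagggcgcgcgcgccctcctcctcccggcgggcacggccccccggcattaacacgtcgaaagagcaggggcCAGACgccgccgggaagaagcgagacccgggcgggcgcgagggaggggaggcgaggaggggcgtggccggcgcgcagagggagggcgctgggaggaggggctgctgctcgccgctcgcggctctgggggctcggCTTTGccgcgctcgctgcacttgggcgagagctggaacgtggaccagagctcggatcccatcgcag
KDR promoter: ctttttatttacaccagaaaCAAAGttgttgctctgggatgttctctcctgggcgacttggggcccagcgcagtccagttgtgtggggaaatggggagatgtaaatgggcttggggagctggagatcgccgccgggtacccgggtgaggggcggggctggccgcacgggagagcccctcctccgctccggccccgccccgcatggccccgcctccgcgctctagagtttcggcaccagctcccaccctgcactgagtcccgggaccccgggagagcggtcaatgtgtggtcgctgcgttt
FLT1 promoter: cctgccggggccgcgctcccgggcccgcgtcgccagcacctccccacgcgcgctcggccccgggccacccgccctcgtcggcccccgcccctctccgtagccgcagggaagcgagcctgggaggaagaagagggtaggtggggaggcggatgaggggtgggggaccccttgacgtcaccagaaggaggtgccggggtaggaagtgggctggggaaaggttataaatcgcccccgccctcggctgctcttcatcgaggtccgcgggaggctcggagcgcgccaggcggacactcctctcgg
The PDGFRA promoter held 1 SMAD motif and no TCF/LEF motif, and its second listed start held neither. The KIT promoter held 1 motif of each of these kinds, the KDR promoter 1 TCF/LEF motif, and the FLT1 promoter none. No GATA motif was found in these 4 stretches. Among all 35116 promoters of the same length, 47.5% held the TCF/LEF motif, 45.3% the SMAD motif and 22.7% the GATA motif, so that a match is common. In base composition the 4 promoters ranged from 47.0% G and C with 8 CG pairs for PDGFRA to 74.3% with 38 CG pairs for KIT, with 65.0% and 22 pairs for KDR and 73.3% and 33 pairs for FLT1. The second PDGFRA start, not printed, had 66.7% and 32 pairs.

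The partners of these receptors were 19 further ligands and co-receptors, of which 13 averaged 1 FPKM or more. In both clones, 2 of the 13 were at least 2-fold lower, beside 1.08% of all genes, and 0 were higher, beside 0.236%. With R-spondin2, 2 of the 13 were at least 2-fold lower, beside 0.173%, and 0 were higher, beside 0.0473%. By limma 0 of 13 passed an adjusted p of 0.05, and 5 of 13 had an unadjusted p under 0.05, beside 18.4% of all genes. Their median difference was -0.01 in the clone mean and 0.17 with R-spondin2.

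The 2 genes lower in both clones were the neuropilins, co-receptors that bind VEGF and semaphorins and form complexes with the VEGF receptors. NRP1 was at 15.11 FPKM in the control library, 20.06 FPKM with R-spondin2, 2.11 FPKM in clone 1 and 4.95 FPKM in clone 2. Its differences from control were -2.37 in clone 1 and -1.44 in clone 2, and its limma adjusted p was 0.102. NRP2 was at 28.72 FPKM in the control library, 38.17 FPKM with R-spondin2, 7.57 FPKM in clone 1 and 11.46 FPKM in clone 2, with differences of -1.79 and -1.25 and a limma adjusted p of 0.0882. Both neuropilins showed the order of libraries seen for APLNR and PDGFRA. NRP1 FPKM were 0.439 times those of KDR in the control library, 0.588 times with R-spondin2, 0.0787 times in clone 1 and 0.151 times in clone 2.

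The 2 partners lower with R-spondin2 were ligands, APELA as given above and PDGFA. PDGFA, a ligand of PDGFRA, was at 7.84 FPKM in the control library, 3.17 FPKM with R-spondin2, 10.62 FPKM in clone 1 and 11.28 FPKM in clone 2. PDGFA was lower with R-spondin2 (difference -1.08), and both clones were above control without reaching 2-fold. The R-spondin2 library thus held the least PDGFA and the most PDGFRA. VEGFB, a ligand of FLT1, was at 16.21 FPKM in the control library, 18.32 FPKM with R-spondin2, 15.84 FPKM in clone 1 and 14.16 FPKM in clone 2, within a narrow range.

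**Figure D4:**
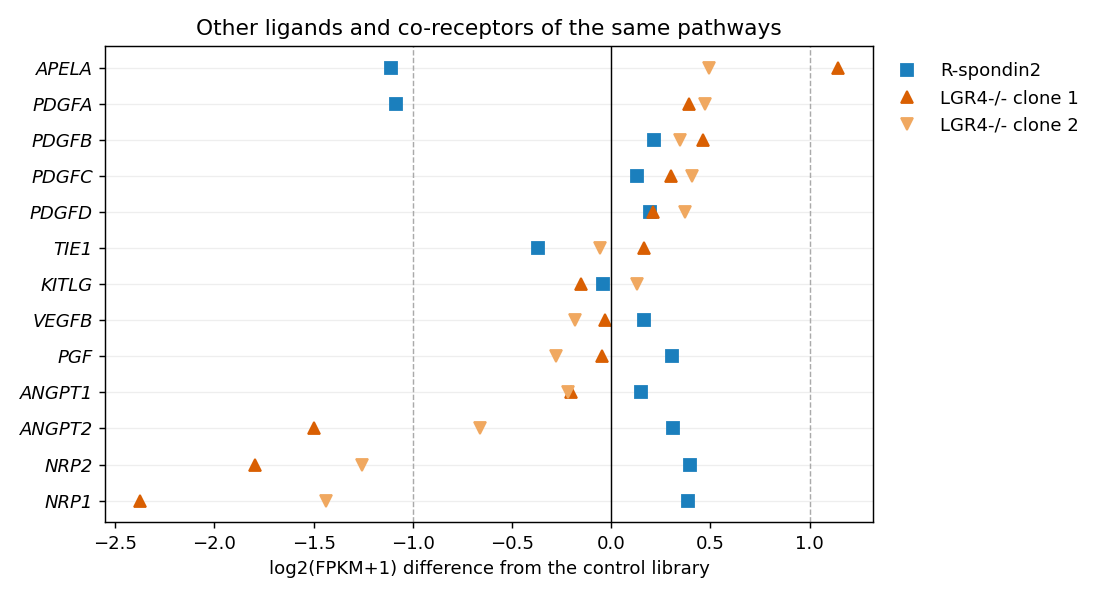
Difference from the control library on the log2(FPKM+1) scale (horizontal) of the 13 partner genes (rows) in R-spondin2, LGR4-/- clone 1 and LGR4-/- clone 2, each point being 1 library, with dashed lines at 2-fold. NRP1 and NRP2 are past 2-fold lower in both clones, and APELA and PDGFA with R-spondin2.

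Genes whose pattern was closest to APLNR and PDGFRA were found by the Euclidean distance of log2(FPKM+1), centred on the mean over the 4 libraries, among the 6550 genes averaging 10 FPKM or more. The nearest to APLNR were IRX3 (distance 0.0685), BMPER (0.079) and RHOBTB3 (0.125). IRX3, a homeobox transcription factor, was at 27.41 FPKM in the control library, 33.32 FPKM with R-spondin2, 4.30 FPKM in clone 1 and 8.35 FPKM in clone 2. BMPER, a secreted modulator of BMP signaling, was at 16.57, 19.52, 2.24 and 4.64 FPKM in the same order. The nearest to PDGFRA were BAMBI (0.0616), a decoy receptor of the TGF-β family, P3H2 (0.0809), a collagen prolyl hydroxylase, and BAG3 (0.0962), a co-chaperone. With 4 libraries, such distances describe these libraries only.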

How the data were processed

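The 4 libraries were made by the authors with an Illumina TruSeq RNA kit from TRA-1-85+ cells. The authors deposited FPKM to 2 decimals for 17894 genes in each library. Their processing notes name BWA, Bowtie, RSEM and hg19, without role, order or version, and whether strand was used is not given in the sources used here. Because FPKM are scaled for length and depth, no count model was run. FPKM were compared as log2(FPKM+1) for the 12697 genes averaging 1 FPKM or more over the 4 libraries, and genes were called at 2-fold, for LGR4-/- in both clones. limma 3.58.1 in R 4.3.3 (mean-variance trend, 3 groups, 1 residual degree of freedom, 4.05 prior degrees of freedom) was run on all of these genes with Benjamini-Hochberg adjustment. It assumes that the single control library varies as the clones do, and since nothing says more of the cultures, its p-values measure only the spread between these samples. The script was tested on simulated data.

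Depth was estimated at 8910000 reads for the control, 8680000 for R-spondin2, 8900000 for clone 1 and 8780000 for clone 2, chosen so that low values (under 0.6 FPKM, on transcripts under 1500 bases) came closest to whole reads. Between 76.3% and 77.7% of them were then within 0.2 reads of a whole number, compared with 35.4% to 38.7% after lengths were shuffled. Lengths came from GENCODE release 29, with the shortest listed transcript where a gene has several, which gives the widest interval. Intervals are 95% Clopper-Pearson intervals. Promoters came from RefSeq (GRCh38.p14) and the primers from the study's supplement. Computations used Python 3.11.15, numpy 2.4.6, scipy 1.17.1, pandas 2.3.3 and matplotlib 3.10.9.

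Named were the 10 genes, LGR4, partner genes past 2-fold in either comparison, the 4 partner genes with the highest mean FPKM, the 3 genes nearest in pattern to APLNR, KDR and PDGFRA, and marker genes for the libraries. Those nearest to KDR are not reported here. The genes and lists were chosen with earlier results of these data known. The alternatives were a pseudocount of 0.1, no filter, a filter of 5 FPKM, median-ratio rescaling, a 1.5-fold threshold, limma without the trend or with 2 groups, leaving out each clone and using the R-spondin2 library as the reference, the last of which was chosen after seeing the data.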

Additional observations from a re-analysis of the deposited data

How the results depend on the processing

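The count of the 9 genes at least 2-fold lower in both clones went from 1 to 2, by the addition of PDGFRA, with a pseudocount of 0.1 FPKM, with median-ratio rescaling, with a threshold of 1.5-fold and with the R-spondin2 library as the reference, and it was 1 without clone 1 and 2 without clone 2. APLNR was counted under each of these. At 1.5-fold, 1 of the 9 genes (APLNR) and 3 of the 13 partners differed between the clones, against 0 and 0 at 2-fold, and 2 partners did with a pseudocount of 0.1 FPKM. The count of partners higher in both clones, 0 in the report, was 0 without clone 1, 1 without clone 2 and 2 against the R-spondin2 library. The share of all genes past the threshold under each of these alternatives is not given here. These changes of count can therefore not be read as particular to the named genes. limma counted 3 of the genes and 497 of all genes at an adjusted p of 0.05 with a filter of 5 FPKM. After rescaling it counted 0 of the genes and 88 of all genes. The filter of 5 FPKM tests fewer genes, without FLT4 and PDGFRB, and it also changed the limma standard errors. That of APLNR went from 0.30 to 0.26. The cause of the change in either count was not tested. No difference past 2-fold changed sign under any alternative. Of the remaining values, 194 moved by less than the spread between the clones or kept their call and 34 moved by more. For a single gene, leaving out 1 of the 2 clones always shifts the mean by less than that spread. Those outcomes, counted in the 194, were fixed in advance and do not test the differences. limma could not be fitted without a clone, since no residual degree of freedom is left. No paired analysis was possible because control and R-spondin2 have 1 library each. Depth limits APLN, at 7 to 14 reads, the most, and a single control library limits every difference from control.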

Other observations

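VEGFA is a textbook target of the hypoxia response, and a list of 10 other hypoxia-responsive genes was read beside it. Of the 10, 9 averaged 1 FPKM or more. With R-spondin2, 0 of 9 were past 2-fold, beside 0.221% of all genes. In both clones 0 of 9 were, beside 1.08% of all genes lower and 0.236% higher. In the clone mean, 1 of the 9, ADM, was above control, beside 6803 of the 12697 genes tested. Their median difference from control was 0.01 with R-spondin2 and -0.24 in the clone mean, where values ran from -0.86 for EGLN3, an oxygen-sensing prolyl hydroxylase, to 0.48 for ADM, the vasoactive peptide adrenomedullin. EGLN3 was at 15.33 FPKM in the control library, 16.50 FPKM with R-spondin2, 7.72 FPKM in clone 1 and 8.29 FPKM in clone 2. ADM was at 22.38 FPKM in the control library, 14.15 FPKM with R-spondin2, 32.93 FPKM in clone 1 and 30.50 FPKM in clone 2. PGK1, a glycolytic enzyme, stayed between 192.51 and 198.67 FPKM in the 4 libraries. These 3 were chosen after their values were seen.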
